A study of Homo sapiens with 18 samples.

Results

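The genes described here encode the enzymes and binding proteins of fatty acid metabolism: synthesis, elongation, desaturation, activation, oxidation and the first steps into glycerolipids. Of 39 listed genes, 38 were found among the probe sets by symbol (TECR is listed there as GPSN2 and PLPP1 as PPAP2A), out of 19178 genes named on the arrays, and each was represented by its brightest probe set. HADH was the gene not found. Its probe sets carry the older name HADHSC. Matched by accession, it stood at 12.61 with vehicle and 12.77 with DHT on the log2 scale (change 0.16 ± 0.16, adjusted p = 0.588), was called in none of the comparisons and stays outside the counts. Of the 38, 34 lay above the brightness limit, a mean log2 signal of 6.98 over all arrays, and were tested among 12752 genes. ACSL4, ACSL5, FABP5 and ACADL lay below it and none of them was called when every gene was tested.

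Transcript levels had been measured in LNCaP cells, an established prostate carcinoma line from a lymph node metastasis whose androgen receptor carries a mutation in the ligand-binding domain. All cells grew in RPMI medium whose 5% serum was hormone-depleted, and treatment lasted 16 h. The 6 groups of 3 arrays received DMSO (vehicle), 100 nM of the androgen DHT (dihydrotestosterone), the antiandrogen enzalutamide at 1 or 10 µM, or 100 nM DHT plus enzalutamide at 1 or 10 µM. The labels do not say whether the 3 replicates of a group were separate cultures, so the p-values reflect only how far these arrays differ, which may be technical variation.

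Fatty acids are built in the cytosol from citrate. ACLY splits citrate to acetyl-CoA, ACACA carboxylates it to malonyl-CoA, and FASN joins these units to palmitate. ELOVL enzymes and the desaturases then lengthen and unsaturate the chain in the endoplasmic reticulum, and ACSL enzymes couple free fatty acids to coenzyme A, which commits them to lipid synthesis or to oxidation in mitochondria and peroxisomes. Prostate carcinoma is known for active lipid synthesis and for raised AMACR, which prepares branched-chain fatty acids for oxidation.

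Levels are log2 signals, changes are differences of group means on that scale followed by ± the fitted standard error, n was 3 arrays per group throughout, and a gene was called at a limma adjusted p under 0.05 (Benjamini-Hochberg over all 12752 genes, two-sided). Array medians ran from 6.87 to 7.18. On the second arrays of DHT and of enzalutamide 1 µM (replicate 2 in each) the 3′ ACTB probe set was 4.50 and 6.04 times as bright as the 5′ one, against 1.42 to 1.80 on the other arrays, and counts are also given without these 2 arrays. The known androgen targets KLK3, TMPRSS2 and FKBP5 were higher with DHT by 4.05 ± 0.23, 4.62 ± 0.25 and 4.32 ± 0.16. Beside 10 µM enzalutamide FKBP5 differed from DHT alone by -3.57 and TMPRSS2 by -2.33, while KLK3 differed by -0.23 (adjusted p = 0.616). KLK3 was higher with 10 µM enzalutamide alone than with vehicle, by 1.22 ± 0.23 (adjusted p = 0.0224). Its DHT effect was 2.60 beside 10 µM, which differed from the effect without drug by -1.45 ± 0.33 (adjusted p = 0.0129). All 7 luminal markers of the labelled line lay above the brightness limit. Among markers of other cells, 2 of 3 basal, 2 of 4 fibroblast, 1 of 3 leukocyte and 0 of 4 adipocyte genes did, and their part in the results was not tested. In these bulk samples fewer cells of a type and less RNA per cell cannot be told apart.

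The promoters of 4 of the 5 members whose DHT effect was called smaller beside 10 µM enzalutamide than without it are shown first. The other is PLPP1, which had no promoter sequence. Sequences are the 250 bases before the annotated start of the gene, from RefSeq (GRCh38.p14), 5′ to 3′ on the strand of the gene, and 29 of the 38 members had one. Capitals mark CCAAT (the box bound by NF-Y) and GGGCGG (the GC box bound by Sp1), searched on both strands, so that ATTGG and CCGCCC are the same motifs read from the other strand. ELOVL7 lies at chr5:60844270-60844519 on the minus strand, ACSL3 at chr2:222860786-222861035 on the plus strand, FADS1 at chr11:61817004-61817253 and AMACR at chr5:34008051-34008300, both on the minus strand.
ELOVL7: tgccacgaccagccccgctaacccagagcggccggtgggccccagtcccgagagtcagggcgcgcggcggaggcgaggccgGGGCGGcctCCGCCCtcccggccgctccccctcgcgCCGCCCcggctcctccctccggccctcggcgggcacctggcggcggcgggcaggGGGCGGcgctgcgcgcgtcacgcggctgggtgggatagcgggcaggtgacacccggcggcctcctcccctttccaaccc
ACSL3: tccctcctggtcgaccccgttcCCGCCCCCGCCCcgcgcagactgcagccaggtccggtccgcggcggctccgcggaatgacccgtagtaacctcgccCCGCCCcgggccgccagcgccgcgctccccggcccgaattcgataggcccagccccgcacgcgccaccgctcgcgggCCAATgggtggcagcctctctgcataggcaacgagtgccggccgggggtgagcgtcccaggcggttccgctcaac
FADS1: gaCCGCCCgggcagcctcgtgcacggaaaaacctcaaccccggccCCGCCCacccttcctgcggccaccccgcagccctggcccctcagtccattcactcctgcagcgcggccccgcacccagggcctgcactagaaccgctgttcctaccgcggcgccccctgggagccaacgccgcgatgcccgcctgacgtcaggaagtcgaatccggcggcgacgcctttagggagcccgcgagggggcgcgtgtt
AMACR: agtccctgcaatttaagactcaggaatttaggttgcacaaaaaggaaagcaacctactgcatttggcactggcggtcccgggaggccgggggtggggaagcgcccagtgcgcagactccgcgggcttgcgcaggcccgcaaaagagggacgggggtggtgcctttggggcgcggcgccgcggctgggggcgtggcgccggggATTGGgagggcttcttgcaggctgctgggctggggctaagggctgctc

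The ELOVL7 window held 4 GC boxes and no CCAAT box, and the ACSL3 window 3 GC boxes and a CCAAT box 75 to 71 bases before the start. The FADS1 window held 2 GC boxes, and the AMACR window a single CCAAT box, 48 to 44 bases before the start. Over the 11 members called higher with DHT that had a promoter sequence, 6 held a CCAAT box (ACLY, ELOVL1, ELOVL5, SCD, ACSL3 and AMACR), against 1 of the 15 tested members that were not called (TECR) and 33.0% of all 27305 promoters. A GC box was present in 9 of the same 11, in 10 of the 15 and in 42.3% of all promoters. The motifs TCACNCCAC of the sterol regulatory element and AGAACA, the half-site of steroid receptors, were in 0 of the 29 windows and in 0.875% and 12.4% of all promoters. These counts describe letters in a short window and were not tested.

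With DHT alone, 14 of the 34 tested members were higher than with vehicle and none was lower. Over all genes 16.1% were called in this comparison and 7.8% were called higher. The 14 held 3 of 5 synthesis genes, 4 of 7 elongation genes, 2 of 3 desaturases, 1 of 2 activation genes, 2 of 4 genes of peroxisomal and branched-chain oxidation and 2 of 5 glycerolipid genes. None of the 8 tested genes of mitochondrial oxidation was called by limma, and 1 of them had an unadjusted p under 0.05. The median change was 0.17 over the members and -0.03 over all genes. Without the 2 arrays of high ACTB ratio 12 members were called. With each array centred on its median 64.8% of the called genes were higher, against 48.4% as deposited, and 12 members were higher and 0 lower. With quantile normalization HADHB was called lower as well (-0.25, adjusted p = 0.00457), and with the mean over all probe sets of a gene ELOVL2 was called higher (1.502) and ACAA2 (-1.18) and ACSL1 (-0.29) lower. With that mean 7 of the 14 calls were lost: ACLY (0.16), ACACA (0.70), FASN (0.73), ELOVL5 (0.54), ELOVL6 (0.20), SCD (0.05) and LPIN1 (0.15). FASN had a single probe set, so its change stayed the same there.

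**Figure D1:**
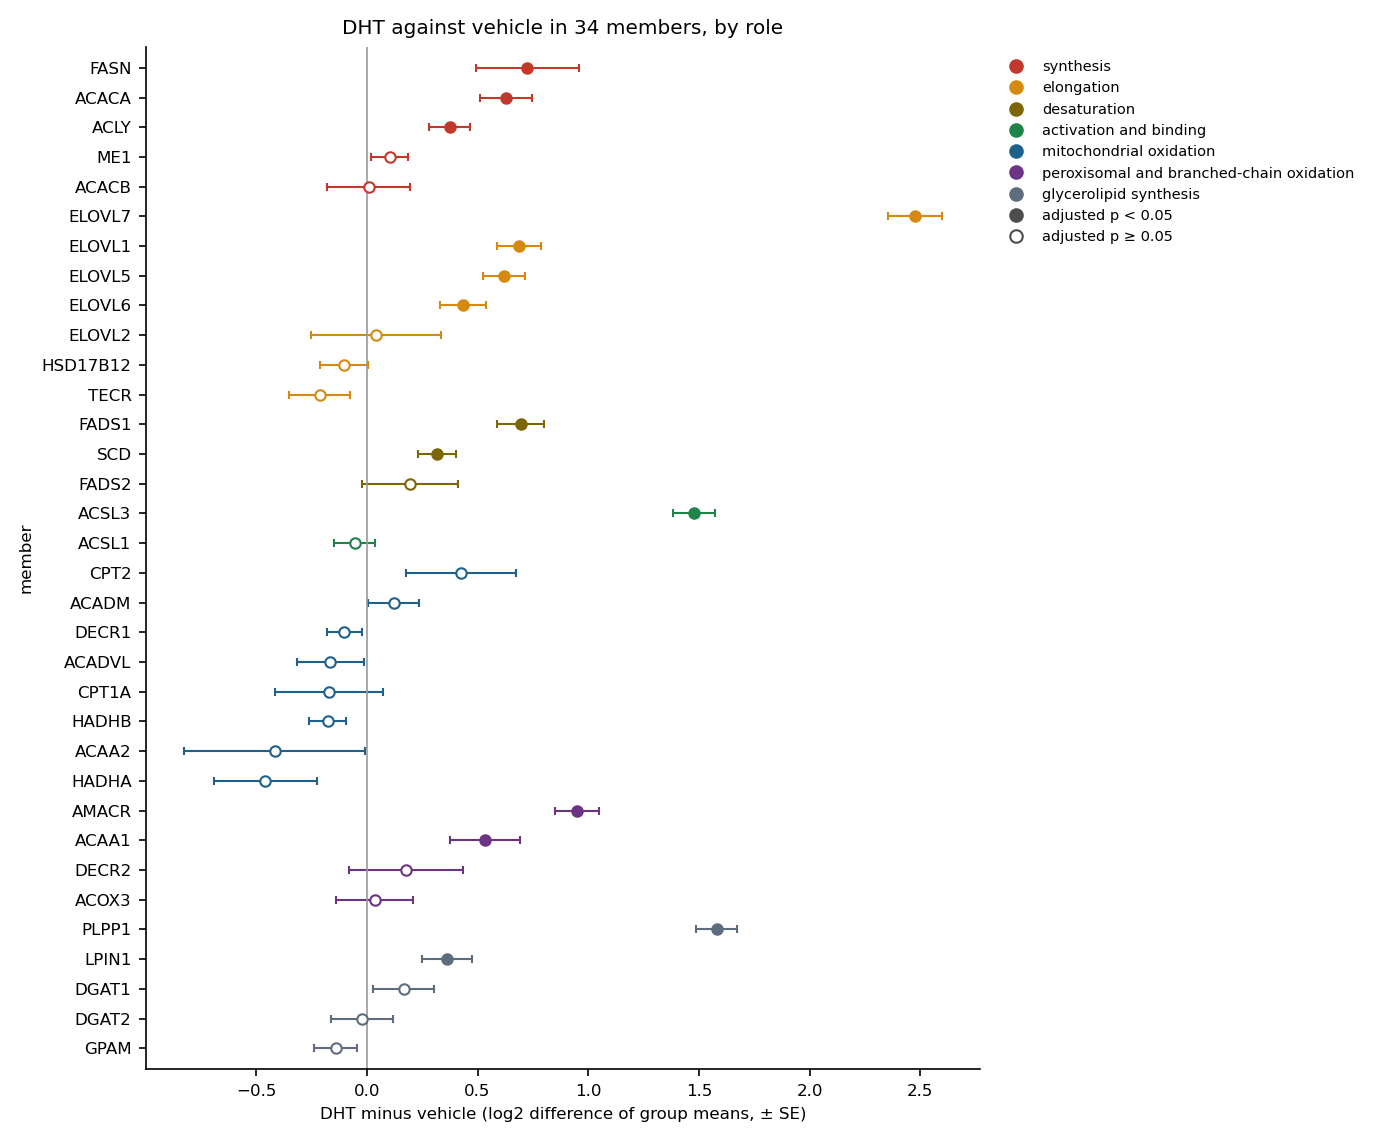
Change of each tested member with DHT, as DHT minus vehicle on the log2 scale (horizontal axis, points ± SE, 3 arrays per group), ordered by role and by size within a role. Filled points passed the adjusted p of 0.05: ELOVL7 (2.48), PLPP1 (1.58) and ACSL3 (1.48) lie farthest right, and all 8 points of mitochondrial oxidation are open.

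Of the 5 synthesis genes FASN, ACACA and ACLY rose. FASN, the fatty acid synthase, stood at 11.13, 10.77 and 10.91 on the vehicle arrays and at 12.28, 11.37 and 11.35 with DHT. The groups did not overlap, but replicate 1 of DHT lay well above the other DHT arrays. The rise was 0.73 ± 0.23 (adjusted p = 0.0403), and it was 0.42 (adjusted p = 0.214) without that array. It was also no longer called without any 1 of the vehicle arrays (0.64 to 0.82) or with quantile normalization (0.69, adjusted p = 0.0538). ACACA, acetyl-CoA carboxylase of the cytosol, went from 11.44, 11.47 and 11.27 to 12.34, 11.94 and 11.79. All DHT arrays lay above all vehicle arrays, by 0.63 ± 0.12 on average (adjusted p = 0.000721), and its other probe set above the limit gave 0.86. ACLY rose from 12.99 ± 0.10 (mean ± SD) to 13.36 ± 0.05, a change of 0.37 ± 0.09 (adjusted p = 0.00807), while its other probe sets gave 0.19 and -0.09. ME1, the malic enzyme that supplies NADPH, and ACACB, the carboxylase bound to mitochondria, changed by 0.10 ± 0.08 and 0.01 ± 0.19 and were not called.

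ELOVL7 had the highest change of all members. This elongase, known to act on long saturated and unsaturated acyl chains, stood at 9.76, 9.56 and 9.42 with vehicle and at 12.13, 12.09 and 11.94 with DHT. The groups lay far apart relative to their spread, and the rise was 2.48 ± 0.12 or 5.56-fold (adjusted p = 3.09e-11). ELOVL7 had a single probe set, so no other could be compared. ELOVL1, which makes very long chains, went from 10.67, 10.71 and 10.64 to 11.34, 11.54 and 11.20, a rise of 0.69 ± 0.10 (adjusted p = 6.31e-05). ELOVL5, which lengthens polyunsaturated chains, went from 13.30, 13.36 and 13.45 to 13.88, 14.05 and 14.04, a rise of 0.62 ± 0.10 (adjusted p = 0.000115). In both genes every DHT array lay above every vehicle array, and the second probe sets gave 0.58 and 1.03. ELOVL6, which extends palmitate, rose by 0.43 ± 0.11 (adjusted p = 0.00689) in the probe set used, but its other probe set gave -0.03. ELOVL2, an elongase, and HSD17B12 and TECR, reductases of the elongation cycle, changed by 0.04 ± 0.29, -0.10 ± 0.11 and -0.21 ± 0.14 and were not called. The other ELOVL2 probe set, below the brightness limit with a mean of 4.72, gave 2.96 ± 0.54 with DHT. It gave -1.54 and -2.16 for DHT with 1 and 10 µM against DHT.

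Among the desaturases, FADS1, the Δ5 desaturase of polyunsaturated chains, stood at 10.58, 10.40 and 10.54 with vehicle and at 11.21, 11.40 and 11.01 with DHT. The rise was 0.70 ± 0.11 (adjusted p = 9.22e-05), and its other 2 probe sets above the limit gave 0.56 and 0.70. SCD, which makes monounsaturated chains, rose by 0.32 ± 0.09 (adjusted p = 0.0147). Its other probe sets gave 0.37 and -0.41, and it was not called without vehicle replicate 2 or 3 or without DHT replicate 1 (0.28 to 0.30, adjusted p up to 0.0561). FADS2, the Δ6 desaturase, changed by 0.20 ± 0.22 and was not called.

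Of the acyl-CoA synthetases, ACSL3, an enzyme of the endoplasmic reticulum and of lipid droplets, was the member called with DHT. It stood at 11.70, 11.84 and 11.75 with vehicle and at 13.28, 13.13 and 13.32 with DHT. The arrays of each group lay close together, and the rise was 1.48 ± 0.10 or 2.78-fold (adjusted p = 1.7e-09). All 4 other probe sets of ACSL3 above the limit rose too, by 1.44 to 2.26. ACSL1 stood at 13.42 ± 0.08 and 13.36 ± 0.10 (mean ± SD) and was not called. Its other probe set above the limit gave a change of -0.53 ± 0.17.

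In the oxidation genes the response was divided. CPT1A and CPT2, which carry acyl chains into mitochondria, changed by -0.17 ± 0.24 and 0.43 ± 0.25. The dehydrogenases ACADVL and ACADM changed by -0.16 ± 0.15 and 0.12 ± 0.11, the trifunctional protein subunits HADHA and HADHB by -0.46 ± 0.23 and -0.18 ± 0.08, the thiolase ACAA2 by -0.42 ± 0.41 and the reductase DECR1 by -0.10 ± 0.08. None of these passed the test, with adjusted p-values of 0.174 or more, and the 95% intervals of several reach changes as large as those called elsewhere (-0.94 to 0.03 for HADHA, -0.09 to 0.94 for CPT2). HADHA and CPT2 moved with the ACTB ratio: the arrays of high ratio gave HADHA 10.24 and 9.93 against 10.80 to 11.34 on the others, and CPT2 12.25 and 12.38 against 11.00 to 11.93.

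AMACR, the racemase of branched-chain acyl-CoA, stood at 10.80, 10.79 and 10.85 with vehicle and at 11.89, 11.75 and 11.65 with DHT. It rose by 0.95 ± 0.10 or 1.93-fold (adjusted p = 8.96e-07), and its other 3 probe sets above the limit rose by 0.51 to 1.03. ACAA1, the peroxisomal thiolase, went from 11.92, 11.99 and 12.05 to 12.29, 12.97 and 12.29. The high value was on the DHT array of high ACTB ratio. The rise of 0.53 ± 0.16 (adjusted p = 0.0246) was 0.30 (adjusted p = 0.149) without that array, and it was also not called without vehicle replicate 1 or 2 (0.50 and 0.54, adjusted p = 0.086 and 0.0648). ACOX3 and DECR2 changed by 0.04 ± 0.17 and 0.18 ± 0.26 and were not called.

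PLPP1, a lipid phosphate phosphatase of membranes, had the second highest change. It stood at 12.68, 12.68 and 12.72 with vehicle and at 14.21, 14.34 and 14.27 with DHT. The rise was 1.58 ± 0.09 or 2.99-fold (adjusted p = 3.59e-10), and its other probe set rose by about 2.0. LPIN1, the phosphatidate phosphatase that yields diacylglycerol, rose by 0.36 ± 0.11 (adjusted p = 0.0334). Its groups overlapped, and the call was lost without the 2 arrays of high ACTB ratio (0.28, adjusted p = 0.122), without either of DHT replicates 1 and 2 (0.33 and 0.28) and without either of vehicle replicates 2 and 3 (0.32 and 0.31). GPAM and the diacylglycerol acyltransferases DGAT1 and DGAT2 changed by -0.14 ± 0.10, 0.17 ± 0.14 and -0.02 ± 0.14 and were not called.

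Enzalutamide added to DHT lowered 4 members against DHT alone at either dose: ELOVL7, ACSL3, AMACR and PLPP1. At 1 µM these 4 were the called members, against 3.5% of all genes called and 2.27% called lower. At 10 µM the same 4 were lower and ACACB was higher, against 8.42% of all genes called and 4.48% called lower. The 2 comparisons share the DHT arrays. The median member change was 0.00 at 1 µM and -0.10 at 10 µM, and the median of all genes 0.02 and 0.035. With each array centred on its median the share of called genes that were higher went from 35.0% to 45.8% at 1 µM and from 46.8% to 31.1% at 10 µM, and ACSL3, ELOVL7 and AMACR were still called lower at both doses.

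ELOVL7 stood at 11.15, 11.02 and 11.10 with DHT and 1 µM and at 10.65, 10.47 and 10.49 with DHT and 10 µM. Against DHT alone the differences were -0.96 ± 0.12 and -1.52 ± 0.12 (adjusted p = 5.19e-05 and 1.01e-07). The difference between the doses, -0.55 ± 0.12, was not called (adjusted p = 0.118), and all values with DHT and drug lay above the 9.03 to 9.76 seen without DHT. ACSL3 stood at 12.71, 12.47 and 12.47 beside 1 µM and at 12.17, 12.03 and 12.03 beside 10 µM, which was -0.69 ± 0.10 and -1.17 ± 0.10 from DHT alone (adjusted p = 0.000175 and 1.63e-07). Its 4 other probe sets moved the same way at both doses (-1.13 to -0.69 and -1.60 to -1.11).

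PLPP1 stood at 13.99, 13.78 and 13.69 beside 1 µM and at 13.41, 13.20 and 13.27 beside 10 µM. The differences from DHT alone were -0.45 ± 0.09 (adjusted p = 0.00692) and -0.98 ± 0.09 (adjusted p = 6.64e-07). The first was not called without replicate 3 of DHT with 1 µM (-0.39, adjusted p = 0.0584) or with each array centred on its median (-0.39, adjusted p = 0.197). AMACR stood at 11.24, 11.16 and 11.07 beside 1 µM and at 10.85, 10.91 and 10.86 beside 10 µM, the latter inside the 10.77 to 11.10 of the groups without DHT. Its differences were -0.60 ± 0.10 (adjusted p = 0.000815) and -0.89 ± 0.10 (adjusted p = 4.96e-06). The second was -0.36 and not called with the mean over probe sets (adjusted p = 0.149).

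ACACB stood at 8.52, 8.78 and 8.30 with DHT, at 8.85, 9.05 and 8.90 with DHT and 1 µM, and at 9.25, 9.00 and 9.24 with DHT and 10 µM. Its rise at 10 µM was 0.63 ± 0.19 (adjusted p = 0.0447). The other 3 probe sets above the limit gave -0.31 to 0.12, the mean over all its probe sets was -0.0003, and the call was lost without any 1 of 5 arrays, DHT replicate 1 or 3 or any array of DHT with 10 µM (0.51 to 0.71). Between the 2 doses beside DHT only PLPP1 was called, lower at 10 µM by 0.53, among 0.0706% of all genes called. That call was lost without any 1 of 5 of the 6 arrays compared, all but replicate 1 of DHT with 10 µM (-0.59 to -0.45).

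**Figure D2:**
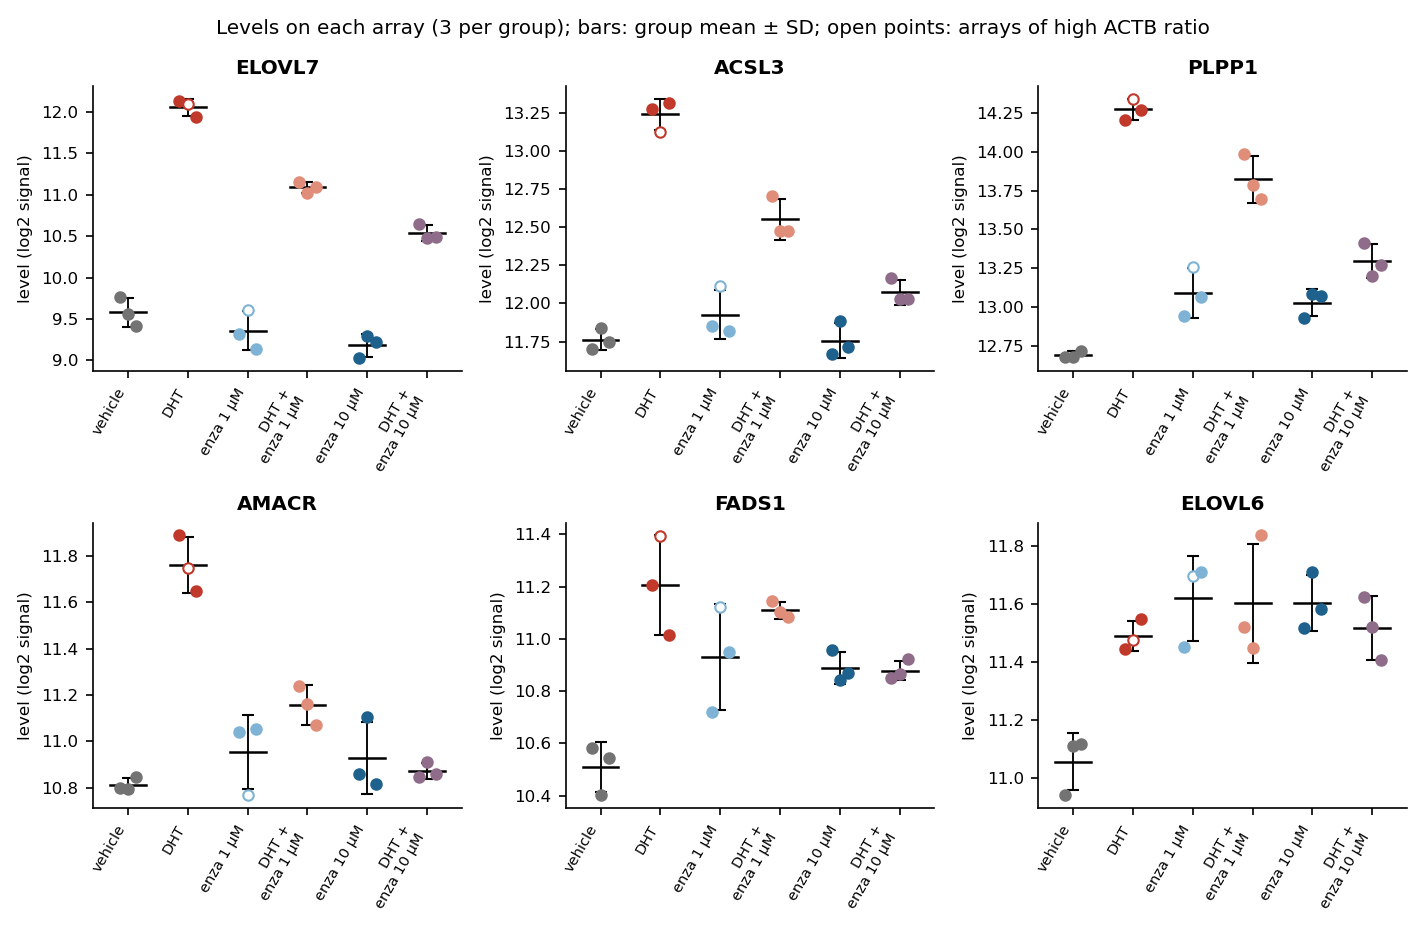
Levels of 6 members on every array (vertical axes, log2 signal, not starting at 0), by group, with bars for the mean ± SD of 3 arrays and open points for the arrays of high ACTB ratio. ELOVL7, ACSL3 and PLPP1 step down from DHT to DHT with 1 and 10 µM, AMACR beside 10 µM lies among the groups without DHT, and the 3 vehicle arrays of ELOVL6 (10.94 to 11.12) lie below the 15 others.

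The effect of DHT was then taken within each drug background, from arrays that do not overlap: DHT against vehicle, and DHT with enzalutamide against the same dose of enzalutamide alone. Beside 1 µM DHT left 13 members higher and 2 lower, with 18.9% of all genes called. Beside 10 µM it left 2 higher, ACACA and ELOVL7, with 2.82% of all genes called. Over the 14 members that rose without drug the median DHT effect was 0.66 without drug, 0.46 beside 1 µM and 0.29 beside 10 µM. The effect was smaller in 10 of the 14 beside 1 µM and in all 14 beside 10 µM, and 9 and 2 of them were called. The 14 were chosen on the first of these values, which therefore overstates it relative to the others.

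The interaction, the DHT effect beside the drug minus the effect without it, was called for 7 members at 1 µM and for 5 at 10 µM, against 5.83% and 5% of all genes. ELOVL7, ACSL3, PLPP1, AMACR and FADS1 were the 5 at 10 µM, and each had a smaller DHT effect at both doses. Both interactions subtract the same DHT effect without drug, so they share the vehicle and DHT arrays and are not independent. The DHT effect on PLPP1 was 1.58 without drug, 0.73 beside 1 µM and 0.26 beside 10 µM, with interactions of -0.85 (adjusted p = 0.00109) and -1.315 (adjusted p = 5.35e-06). For ACSL3 it was 1.48, 0.62 and 0.32, for AMACR 0.95, 0.20 and -0.06, and for FADS1 0.70, 0.18 and -0.01. ELOVL7 kept a DHT effect of 1.73 ± 0.12 beside 1 µM and of 1.35 ± 0.12 beside 10 µM (adjusted p = 1.51e-08 and 1.38e-06), smaller than without drug by 0.74 and 1.12 (interaction adjusted p = 0.0181 and 0.000439). At 1 µM that call ended without the 2 high-ratio arrays (-0.60, adjusted p = 0.053) and with median centring (-0.67, adjusted p = 0.114). The interactions at 1 µM of AMACR (centring, -0.68, adjusted p = 0.0549) and ACSL3 (mean over probe sets, -0.81, adjusted p = 0.0768) were also lost under an alternative, and PLPP1 was the 1 of 7 called under every alternative tried. All 5 interactions at 10 µM were called under every alternative tried.

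FADS1 stood at 11.14, 11.10 and 11.08 with DHT and 1 µM and at 10.85, 10.87 and 10.92 with DHT and 10 µM, which was not called against DHT alone (-0.33 ± 0.11, adjusted p = 0.063 at 10 µM). The drug alone gave 10.72, 11.12 and 10.95 at 1 µM and 10.96, 10.84 and 10.87 at 10 µM, all above the vehicle arrays (10.40 to 10.58). In PLPP1, too, every array with the drug alone lay above the vehicle arrays. The interaction of FADS1 at 1 µM (-0.52, adjusted p = 0.0482) was lost under most of the alternatives. Its other 2 probe sets above the limit gave 0.04 and -0.01 with 1 µM alone against vehicle, and 0.28 and -0.04 with 10 µM alone. Their DHT effects beside 1 µM were 0.60 and 0.41. Their interactions were -0.10 and -0.15 at 1 µM and -0.59 and -0.41 at 10 µM. The rise with 1 µM alone therefore rests on a single probe set.

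Beside 1 µM the synthesis genes FASN, ACACA and ACLY were again called higher with DHT, while ACACB (-0.04) and ME1 (-0.12) were not called. FASN stood at 9.93, 9.76 and 10.62 with 1 µM alone and at 11.70, 11.88 and 11.62 with DHT and 1 µM. That rise of 1.62 ± 0.23 or 3.08-fold (adjusted p = 0.000111) was called under every alternative tried. It was 0.90 above the effect without drug, an interaction that was not called (adjusted p = 0.109). At 10 µM FASN stood at 10.80, 10.09 and 10.73 alone and at 11.21, 11.21 and 11.13 with DHT (0.64 ± 0.23, not called). ACACA stood at 11.17, 11.18 and 11.26 and at 11.99, 12.06 and 11.99 at 1 µM, and at 11.34, 11.18 and 11.48 and at 11.91, 11.67 and 11.74 at 10 µM. Its DHT effects were 0.81 ± 0.12 and 0.44 ± 0.12 (adjusted p = 0.000113 and 0.0493), the second lost without any 1 of 5 arrays, all but replicate 3 of enzalutamide 10 µM (0.36 to 0.49). In the probe sets used, the 95% interval of the interaction at 10 µM was -0.54 to 0.16 for ACACA. It was -0.78 to 0.61 for FASN, -0.39 to 0.16 for ACLY and -0.28 to 0.22 for SCD. With 3 arrays per group, a loss of part of the DHT effect was not detectable in these probe sets for ACACA and SCD. A loss of the whole effect was not detectable for FASN and ACLY. Other probe sets above the limit differed. That of ACACA gave a DHT effect of 0.86 without drug and -0.155 beside 10 µM, an interaction of -1.02. Those of SCD gave interactions of -0.37 and 0.59, and those of ACLY 0.48 and 0.24. Whether the DHT effect on ACACA was kept beside 10 µM therefore depends on the probe set.

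ELOVL1 and ELOVL5 lay between these patterns. ELOVL1 stood at 10.68, 10.52 and 10.92 with 1 µM, at 11.18, 11.34 and 11.20 with DHT and 1 µM, at 10.84, 10.75 and 10.80 with 10 µM and at 11.11, 11.08 and 11.07 with DHT and 10 µM. ELOVL5 stood at 13.46, 13.81 and 13.52, at 14.08, 13.92 and 13.97, at 13.32, 13.47 and 13.43 and at 13.87, 13.62 and 13.64 in the same order. In both the DHT groups lay above their drug controls, and the interactions at 10 µM (-0.40 ± 0.14 and -0.32 ± 0.14) were not called. ACAA1 stood at 12.10, 11.72 and 11.64, at 12.22, 12.26 and 12.33, at 11.67, 12.14 and 11.74 and at 12.16, 12.18 and 12.08 in that order, and its DHT effect was not called beside either dose.

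TECR and GPAM had interactions in the opposite direction at 1 µM. TECR, the last reductase of the elongation cycle, stood at 11.18, 11.41 and 11.05 with vehicle, 11.09, 10.99 and 10.93 with DHT, 10.75, 10.30 and 10.81 with 1 µM and 11.01, 11.22 and 11.37 with DHT and 1 µM. At 10 µM it stood at 10.69, 10.89 and 11.11 alone and 11.20, 11.13 and 11.00 with DHT. The lowest value was on the 1 µM array of high ACTB ratio. The interaction at 1 µM was 0.79 ± 0.20 (adjusted p = 0.0256), it was 0.63 (adjusted p = 0.0664) without the 2 arrays of high ratio, and leaving out any 1 of 6 arrays ended the call (0.63 to 0.81). The second TECR probe set above the limit gave -0.71, and the direction therefore depends on the probe set.

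GPAM, which starts glycerolipid synthesis, stood at 10.42, 10.42 and 10.41 with vehicle, 10.24, 10.27 and 10.32 with DHT, 10.09, 10.22 and 10.04 with 1 µM and 10.44, 10.42 and 10.60 with DHT and 1 µM. With 10 µM it stood at 9.96, 10.37 and 10.18 alone and 10.47, 10.43 and 10.39 with DHT. The interaction at 1 µM was 0.51 ± 0.14 (adjusted p = 0.0377), and leaving out most single arrays ended the call with a value between 0.46 and 0.55. The call was also lost with median centring, quantile normalization, the mean over probe sets or eBayes without trend. The other GPAM probe set above the limit gave an interaction of 1.56 at 1 µM. Its change with DHT against vehicle was -0.84 ± 0.48.

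**Figure D3:**
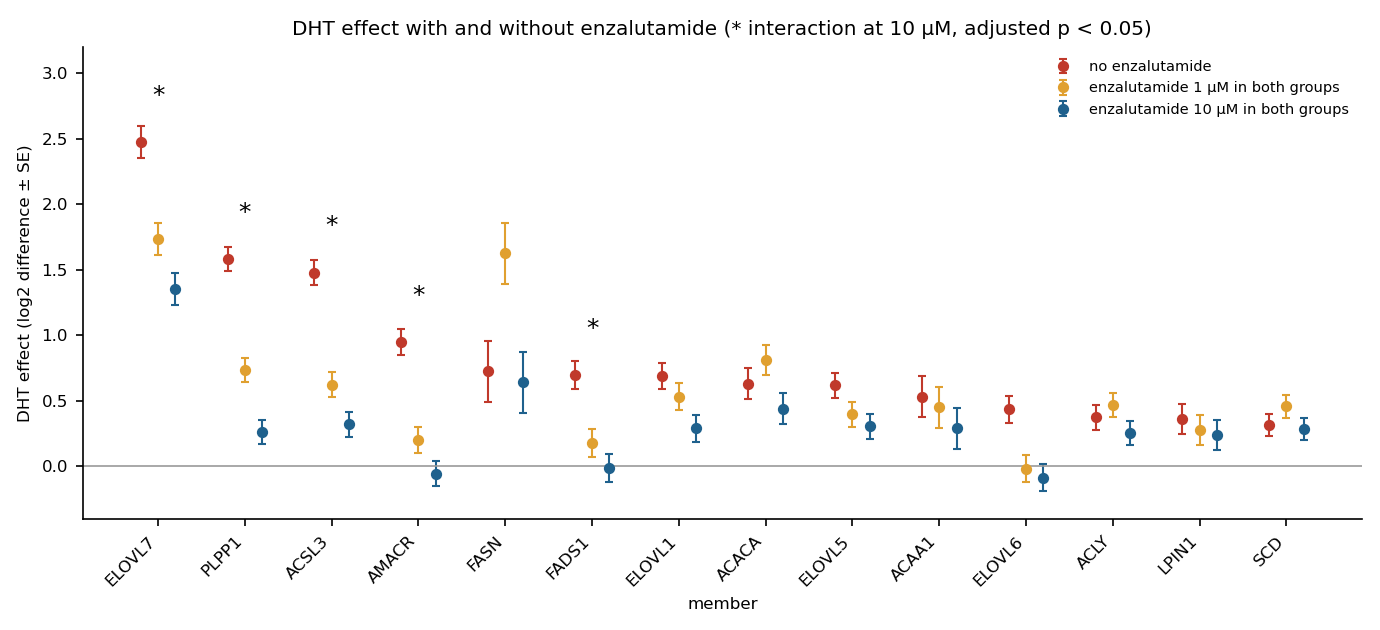
DHT effect on the 14 members called with DHT (vertical axis, log2 difference ± SE) without enzalutamide and beside 1 or 10 µM in both groups. Stars mark the 5 members whose interaction at 10 µM passed the adjusted p of 0.05. In these the points fall from left to right, while FASN, ACACA, ACLY and SCD are highest beside 1 µM.

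Beside 1 µM the members higher with DHT than without it also held FADS2 (0.72 ± 0.22), ACOX3, the branched-chain acyl-CoA oxidase (0.78 ± 0.17), TECR (0.58 ± 0.14) and GPAM (0.37 ± 0.10), and the lower ones were HSD17B12 (-0.44 ± 0.11) and HADHB (-0.28 ± 0.08). FADS2 was not called without enzalutamide 1 µM replicate 1 or 2 or DHT with 1 µM replicate 2 (0.56 to 0.69), GPAM without DHT with 1 µM replicate 3 (0.32) and HSD17B12 without DHT with 1 µM replicate 2 (-0.36). HADHB was the only tested member of mitochondrial oxidation called in any of the 12 comparisons as the values were deposited. Its call ended without the 2 high-ratio arrays (-0.21, adjusted p = 0.0923) or without enzalutamide 1 µM replicate 2 (-0.21). It also ended without DHT with 1 µM replicate 1 or 2 (-0.26 and -0.27) or with median centring (-0.11).

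With enzalutamide alone 6 of the 34 tested members (17.6%) were called at 1 µM and 2 (5.9%) at 10 µM. At 1 µM ELOVL6, HSD17B12, FADS1 and PLPP1 were higher than with vehicle and FASN and TECR lower, with 6.84% of all genes called. FASN fell by 0.83 ± 0.23 (adjusted p = 0.0392), ELOVL6 rose by 0.56 ± 0.11 (adjusted p = 0.00723), HSD17B12 by 0.50 ± 0.11, FADS1 by 0.42 ± 0.11 and PLPP1 by 0.40 ± 0.09, and TECR fell by 0.59 ± 0.14. The other FADS1 probe sets above the limit gave 0.04 and -0.01. PLPP1 stood at 12.94, 13.26 and 13.07 and AMACR, which was not called, at 11.04, 10.77 and 11.05. With the 2 high-ratio arrays removed, ELOVL6 and HSD17B12 were the called members, and leaving out vehicle replicate 1, vehicle replicate 2 or enzalutamide 1 µM replicate 2 left 1 member called, while 10 were called without enzalutamide 1 µM replicate 3. The fall of FASN was lost without any of these 3 and also when vehicle replicate 3 or replicate 1 of enzalutamide 1 µM was left out (-0.92 to -0.66).

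At 10 µM ACACB (0.86 ± 0.19, adjusted p = 0.0398) and ELOVL6 (0.55 ± 0.11, adjusted p = 0.0229) were higher than with vehicle, with 0.816% of all genes called. ACACB stood at 8.49, 8.50 and 8.59 with vehicle, 8.65, 8.91 and 9.35 with 1 µM and 9.78, 9.00 and 9.37 with 10 µM. The other probe sets of ACACB above the limit fell or were level (-0.39 to -0.11). ACACB was lost without any 1 array but enzalutamide 10 µM replicate 2 (0.66 to 0.89), and ELOVL6 without any 1 of the 6 arrays (0.49 to 0.59). ACSL3 stood at 11.85, 12.11 and 11.82 with 1 µM and at 11.67, 11.88 and 11.71 with 10 µM, and ELOVL7 at 9.32, 9.61 and 9.14 and at 9.03, 9.29 and 9.23. PLPP1 at 10 µM stood at 12.93, 13.08 and 13.07 and AMACR at 10.86, 11.10 and 10.82. None of these 4 was called against vehicle at 10 µM.

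ELOVL6 differed from the other responding elongases in its order of levels. It stood at 11.06 ± 0.10 (mean ± SD) with vehicle and at 11.49 to 11.62 in the 5 treated groups, whose arrays overlap. Its other probe set gave -0.03 with DHT, 0.27 with 1 µM and 0.03 with 10 µM against vehicle, so this order rests on a single probe set.

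**Figure D4:**
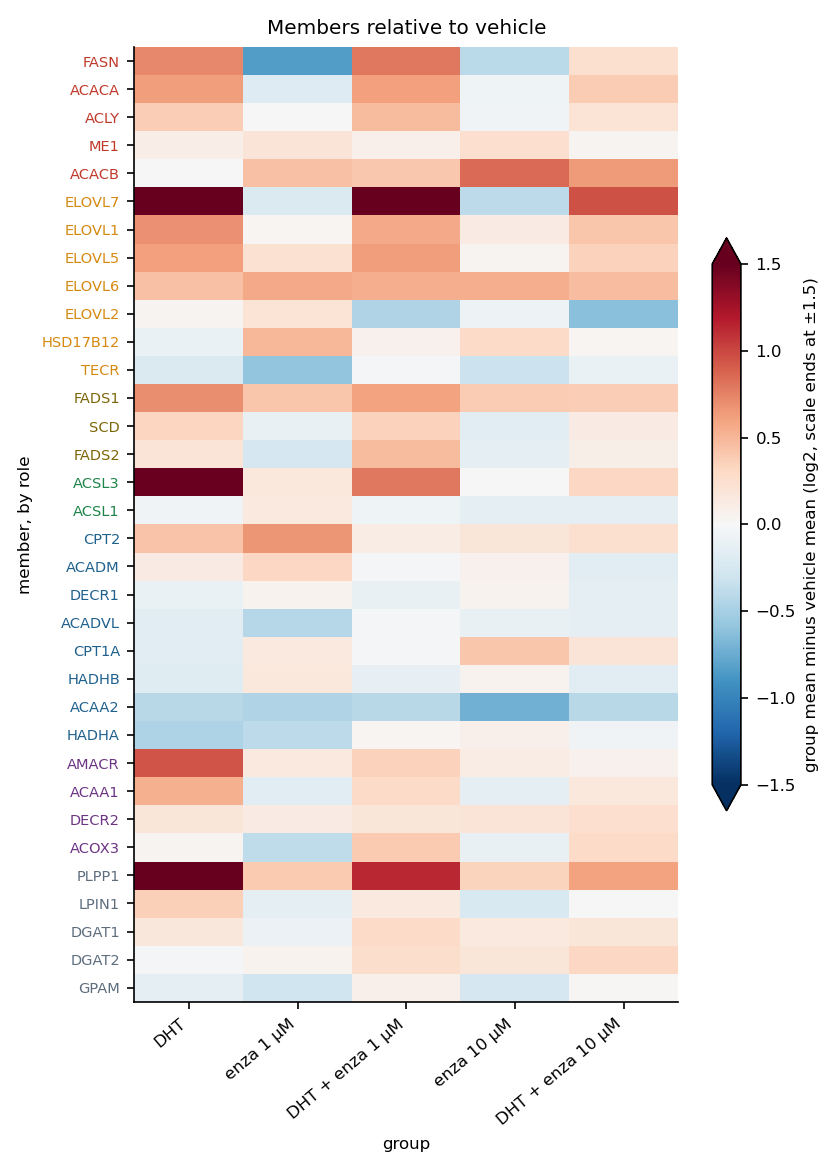
Group means of the 34 tested members minus the vehicle mean (colour, log2, scale ending at ±1.5), with members ordered by role as in the plot of DHT changes. ELOVL7, ACSL3 and PLPP1 exceed or approach the end of the scale with DHT and pale with rising enzalutamide, ELOVL6 is similar in all 5 columns, and the genes of mitochondrial oxidation include cells as deep as ACAA2 with 10 µM (-0.72) and CPT2 with 1 µM (0.66), neither of them called.

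Compared with vehicle, DHT with 1 µM enzalutamide left 12 members higher and none lower, with 10.1% of all genes called, and DHT with 10 µM left 4 higher, ELOVL1, ELOVL6, ELOVL7 and PLPP1, with 3.16% called. At 10 µM ELOVL7 was still 0.96 above vehicle and PLPP1 0.60 above, and both were called under every alternative tried, while ELOVL1 (0.41) was lost without any 1 of the 6 arrays and ELOVL6 (0.46) without any 1 of 4. With DHT and 1 µM, FASN (0.71 to 0.89) was lost without any 1 of the 6 arrays, AMACR (0.30 to 0.36) without any 1 of 5 and SCD (0.30 to 0.34) without any 1 of 4. These comparisons share the vehicle arrays with those above.

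**Figure D5:**
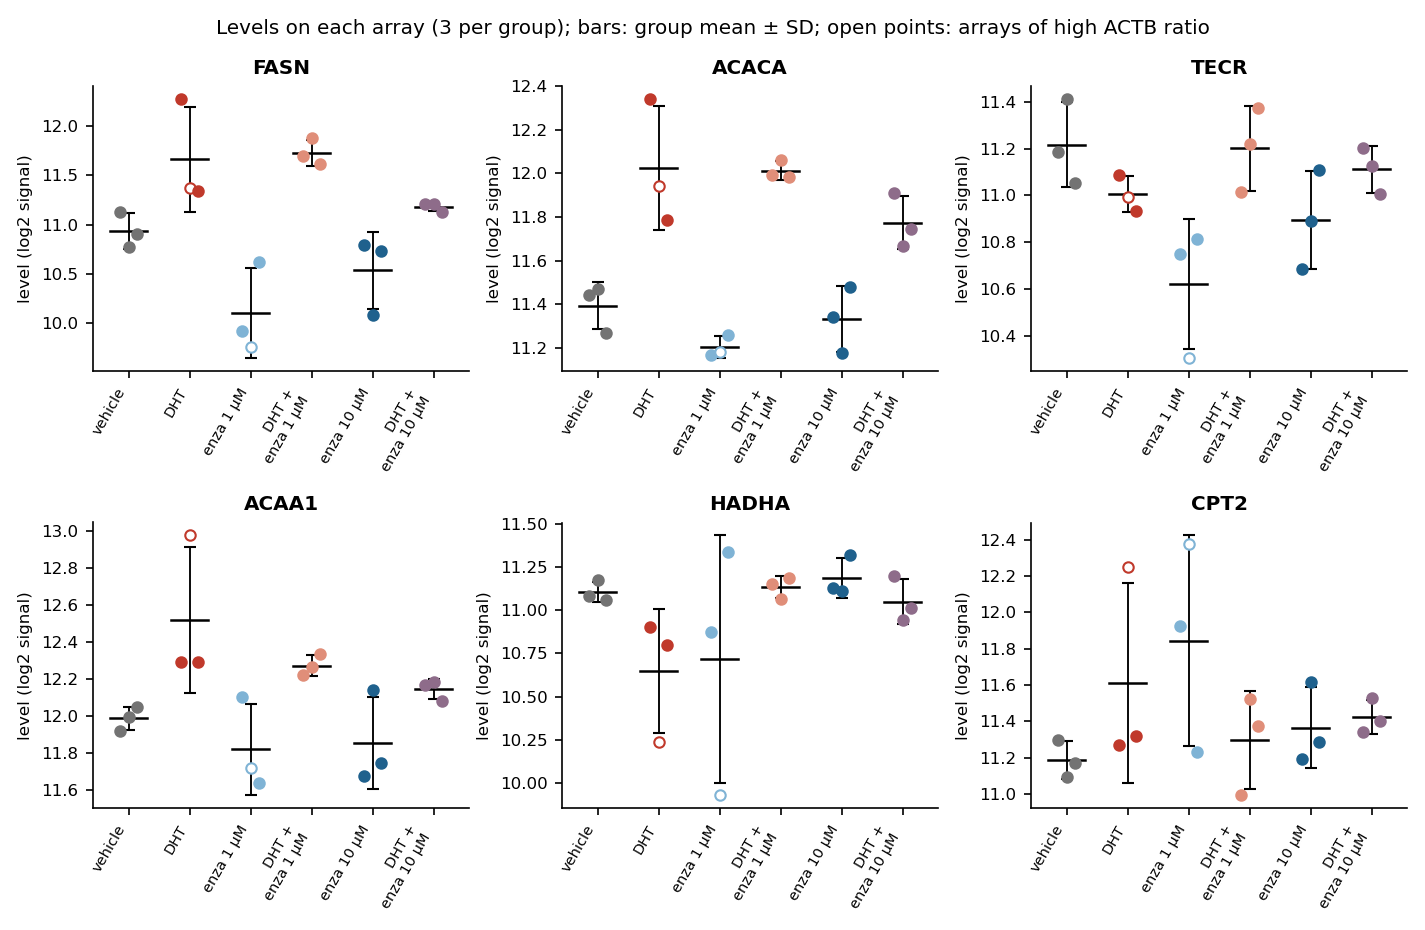
Levels of 6 further members on every array (vertical axes, log2 signal, not starting at 0), by group, with bars for the mean ± SD of 3 arrays and open points for the arrays of high ACTB ratio. FASN and ACACA lie higher in each DHT group than in the group of the same drug dose without DHT, and ACAA1, HADHA and CPT2 have their most distant value in the DHT group on the open point.

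The other genes of the pathway were counted in 5 lists, against the same 16.1% of all genes called with DHT. Of 16 tested regulators 3 were higher with DHT and 1 lower. INSIG1, which retains the sterol regulatory machinery in the endoplasmic reticulum, rose by 1.47 ± 0.13 and SCAP, its binding partner, by 0.92 ± 0.22, while INSIG2 fell by 0.95. Beside 1 µM 7 regulators were higher with DHT (SCAP, SREBF1, INSIG1, SREBF2, ESRRA, MLX and MID1IP1) and INSIG2 was lower. In that comparison 18.9% of all genes were called and 11% were called higher. SREBF1, which encodes the main activator of fatty acid synthesis genes, stood at 10.32 with vehicle, 10.22 with DHT, 9.63 with 1 µM and 10.45 with DHT and 1 µM. Its difference beside 1 µM was 0.82 ± 0.22 (adjusted p = 0.0147), and its interaction was not called. Of 17 other synthesis genes IDH1 rose (0.70) and ACSS2 fell (-0.47). Of 13 other activation and transport genes DBI, the acyl-CoA binding protein, rose by 0.95 ± 0.12 and ACSM3 by 0.59.

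Of 28 other oxidation genes 4 rose and 3 fell with DHT. CROT, which moves acyl chains out of peroxisomes as carnitine esters, rose by 1.55 ± 0.13 (adjusted p = 5.09e-08), ECI2, an enoyl-CoA isomerase, by 0.77 and SLC25A20, the carnitine carrier of the mitochondrial membrane, by 0.72. Beside 10 µM these 3 differed from DHT alone by -0.74, -0.55 and -0.52. Of 17 other glycerolipid and droplet genes AGPAT5 rose by 0.52, and LPCAT4 (-0.87), LPGAT1 (-0.64) and ABHD5 fell. The median change with DHT was between -0.17 and 0.03 in these 5 lists, against 0.17 in the members.

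In the authors' deposited table of comparisons, 15 members had their probe set listed. It marked 12 members as different between DHT and vehicle, of which 11 were also called here. GPAM was marked and not called, FASN and LPIN1 were called and not marked, and ACAA1, called here, was not among the 15. Between DHT with 1 µM and DHT the authors' deposited table marked the same 4 members as called here, and between DHT with 1 µM and vehicle the same 12. For 1 µM against vehicle the authors' deposited table marked 1 member, HSD17B12, of the 6 called here, and for DHT with 10 µM against vehicle it marked 8, the 4 called here and ACACA, ACSL3, FADS1 and SCD. For DHT with 10 µM against DHT the authors' deposited table marked 6 members, of which 4 were called here.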

How the data were processed

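Total RNA of LNCaP cells had been labelled as biotinylated cRNA and hybridised to 1-colour arrays, per the labels' protocols. MAS5 is named in the submitters' processing notes. Its version, the array model and further steps were not stated in the labels. Each deposited array value is a log2 signal, per the file headers and the values. The 2% trimmed mean of the unlogged signals was between 499.94 and 499.95 on every array. A second deposited table held identical values, and the authors' deposited table of comparisons gives p-values and marks per probe set. The values were used as deposited. The number of arrays limits the precision.

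Of 54675 probe sets, 62 controls, 10470 without a symbol and 573 with several were left out. Old names were replaced through RefSeq's gene table (GRCh38.p14): 38161 probe sets matched by accession, 1239 by symbol and 1080 by synonym, and 2987 kept their name. Each gene took its probe set of highest mean, if above the median of all probe sets (6.98). The means of the 6 groups were fitted over all 18 arrays with limma 3.58.1 under R 4.3.3 (12 residual degrees of freedom, eBayes with intensity trend). Python 3.11.15, pandas 2.3.3 and matplotlib 3.10.9 were used for tables and plots. The fit was tested on simulated data.

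The members and lists were chosen with earlier results of these data known. Values of each array are given for members called in an interaction, in DHT with drug against DHT, or with DHT by at least 0.5 on the log2 scale. Of the other pathway genes, up to 3 per list with the largest change were named. Alternatives were median centring, quantile normalization, no brightness filter, the mean over probe sets, eBayes without trend, a replicate block, leaving out the 2 arrays of high ACTB ratio and leaving out each array. The labels name no pairing by replicate number, and the main fit used none. Of 45 pairs of same-numbered arrays, 8 had deviations correlated above 0.1 (median r 0.03). The highest r, 0.42, was between the 2 arrays of high ACTB ratio. With 3 arrays per group these correlations cannot show whether same-numbered arrays were paired.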

Additional observations from a re-analysis of the deposited data

Results flagged for a closer look

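The DHT effect differed between drug backgrounds, by the interaction test, in 7 members at 1 µM and 5 at 10 µM enzalutamide. Over all genes 5.83% and 5% were called. PLPP1 was the 1 of 7 at 1 µM called under every alternative tried, and all 5 at 10 µM were. At 10 µM the DHT effect was smaller than without drug for ELOVL7 (interaction -1.12), ACSL3 (-1.16), PLPP1 (-1.315), AMACR (-1.004) and FADS1 (-0.71). At 1 µM it was smaller for ELOVL7 (-0.74), ACSL3 (-0.85), PLPP1 (-0.85), AMACR (-0.75) and FADS1 (-0.52), and larger for TECR (0.79) and GPAM (0.51). The values for TECR come from the brighter of its probe sets above the brightness limit, and the other gave -0.71. For FADS1 at 1 µM the other probe sets above the limit gave -0.10 and -0.15.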

How the results depend on the processing

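Counts of called members stayed within 1.5 times of the value reported for DHT against vehicle, for DHT with either dose against DHT, for DHT with 1 µM against 1 µM and for the interaction at 10 µM. The others moved. Against vehicle, 1 µM went from 6 members to 1 with median centring, 2 with the mean over probe sets and 2 when the arrays of high ACTB ratio were left out. At 10 µM the 2 members against vehicle became 0 by limma with centring, the mean over probe sets or no intensity trend (9 had an unadjusted p under 0.05 as deposited), 1 with no filter or with the replicate block, and 5 without the high-ratio arrays. The 1 member between doses beside DHT became 0 with centring, no filter, the mean over probe sets, no trend or the replicate block (9 unadjusted as deposited), and 3 without the high-ratio arrays. For DHT with 10 µM against 10 µM the 2 became 1 with centring, no filter or no trend, 7 with quantile normalization and 6 without the high-ratio arrays. The 7 interactions at 1 µM became 2 with centring, 3 with the mean over probe sets and 4 without the high-ratio arrays. Against vehicle, the 12 of DHT with 1 µM became 7 with the mean over probe sets, and the 4 of DHT with 10 µM became 2 with centring and 8 without the high-ratio arrays. The cause was not tested.

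With 1 array left out the counts ran from 10 to 14 for DHT against vehicle, 1 to 10 and 0 to 1 for 1 and 10 µM against vehicle, 3 to 4 and 4 to 6 for DHT with 1 and 10 µM against DHT, 0 to 1 between doses, 12 to 19 and 1 to 3 for DHT beside 1 and 10 µM, 4 to 13 and 5 to 6 for the interactions, and 9 to 10 and 2 to 3 for DHT with 1 and 10 µM against vehicle. The replicate block lost 4 of 77 calls of single members. Centring lost 22 of 77, quantile normalization 4 and the removal of the high-ratio arrays 11, with none reversed. The mean over probe sets lost 29 and turned the sign of 6: ACACB with 10 µM against vehicle (-0.12) and with DHT and 10 µM against DHT (-0.0003), HSD17B12 (-0.22) and TECR (0.42) with 1 µM against vehicle, and TECR beside 1 µM (-0.96) and in the interaction (-0.57). That alternative averages dim probe sets with bright ones. Centring moved the median change of all genes from -0.01 to 0.16 for DHT beside 1 µM, from -0.02 to 0.14 for DHT with 1 µM against vehicle and from 0.01 to -0.12 between doses. With centring HSD17B12 and HADHB beside 1 µM were at -0.27 and -0.11, still below that median of all genes, and were not called.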
